A study of Rattus norvegicus with 6 samples.

Results

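The 42 genes described here encode proteins of homologous recombination and of the Fanconi anemia pathway. They were chosen by gene symbol from a list of 42 names. All 42 were found among the 32883 genes of the count table, 41 of them under the listed symbol and Mre11 under its older symbol Mre11a. All 42 passed the filter on low counts that left 14670 genes for testing. The data are bulk RNA-seq of primary oligodendrocyte precursor cells (OPCs) of Sprague Dawley rats, the glial progenitors that divide and then form oligodendrocytes. Mixed cells from the cerebral cortices of P0 pups were cultured for 7 days, after which the OPCs were shaken off and replated. They received 5 µM ZJU-37, an inhibitor of the kinase RIPK1, or an equal volume of DMSO, with 3 libraries per group. The labels and the study's figure legend give 36 h of treatment, while the study's methods give another duration. The labels name no genetic change in either group. They also do not say whether the 3 libraries of a group came from separate cultures. The study's methods call them biological repeats, and its figure legend counts plate wells. The p-values therefore measure the spread between these libraries, which may be technical.

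Homologous recombination repairs a broken chromosome or a collapsed replication fork by copying the sister chromatid. The broken ends are cut back to single strands, the BRCA proteins load the recombinase onto them, and helicases and nucleases then separate the joined molecules. The Fanconi pathway acts when a fork meets a crosslink between the DNA strands. A core complex attaches ubiquitin to FANCD2 and FANCI, and the lesion is then unhooked and passed to recombination. Both pathways work mainly in S and G2 phase, and in dividing cells many of their genes are transcribed most strongly then.

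The libraries held between 13935865 and 24097927 counts, so 3 counts corresponded to 0.124 to 0.215 CPM (counts scaled to a common library total). Among the proliferation markers, 13 of 13 tested were higher with ZJU-37, with a median log2 fold change of 1.29, including Mki67 (1.32 ± 0.10, SE) and Top2a (1.28 ± 0.11, SE). Of 7 OPC markers 4 were higher and 2 lower, Pdgfra rising from 394 ± 49.2 to 843 ± 249 CPM (SD, n = 3) and Gpr17, whose gene span overlaps that of Lims2, falling from 357 ± 25.1 to 33.1 ± 9.002 CPM. The call of Pdgfra (adjusted p = 0.0182) was lost without DMSO replicate 2 (0.0775) or 3 (0.0693). Of 9 mature oligodendrocyte markers 3 were lower (median -1.003), or 6 with the replicate number as a block. Their summed level was 12864 to 24409 CPM with DMSO and 5067 to 10189 CPM with ZJU-37, without overlap. Transcripts used as markers of other cell types were also detected, and the cells they came from were not determined. The summed level of 8 astrocyte markers was 1026 to 1655 CPM with DMSO and 904 to 1358 CPM with ZJU-37, that of 10 microglia markers 2066 to 3536 and 1495 to 3143 CPM, and that of 7 neuron markers 714 to 921 and 628 to 837 CPM. The ranges of these astrocyte, microglia and neuron sums overlapped between the groups. None of the markers in them was below 1 CPM in all libraries, and 1 astrocyte marker was called lower. With the block, 4 astrocyte, 3 microglia and 2 neuron markers were lower and 1 astrocyte marker was higher. Of all tested genes, 9.43% were called higher and 5.58% lower, or 16.2% and 15.9% with the block. The part of proliferation, differentiation state and other cells in the results below was not tested. In bulk RNA, a larger share of dividing cells and more of these transcripts in each cell cannot be told apart.

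Most of the recombination and Fanconi genes were higher with ZJU-37. Summed over the 42 genes, the level was between 821 and 840 CPM in the DMSO libraries (831 ± 9.57, SD, n = 3) and reached 1402, 1210 and 1242 CPM with ZJU-37 (replicates 1, 2 and 3), with a mean of 1285 ± 103 (SD, n = 3). In the quasi-likelihood fit of edgeR, with Benjamini-Hochberg adjusted p-values over all tested genes, 26 of the 42 were higher with ZJU-37 (61.9%), against 9.43% of all tested genes, and 1 was lower (Rad51d), against 5.58%. The remaining 15 were not called. With the replicate number as a block, 31 were higher, against 16.2% of all genes, and the same single gene was lower, against 15.9%. A rise of at least 1 on the log2 scale was called for 15 members, against 2.79% of tested genes. The median log2 fold change of the 42 was 0.76, while that of all tested genes was -0.03.

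The separation of the libraries was wide compared with the spread within each group. For 33 members each ZJU-37 library lay above each DMSO library, a pattern seen for 19.0% of tested genes. For 1 member, Rad51d, each ZJU-37 library lay below each DMSO library, a pattern seen for 16.2%. The groups overlapped for the other 8. Within the same-numbered pairs of libraries the median log2 difference was 0.77, 0.69 and 0.67, and 37 members were higher with ZJU-37 in all 3 pairs. ZJU-37 replicate 1 was the highest library of its group for 25 of the 26 members called higher. Without it the median log2 fold change was 0.69.

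**Figure D1:**
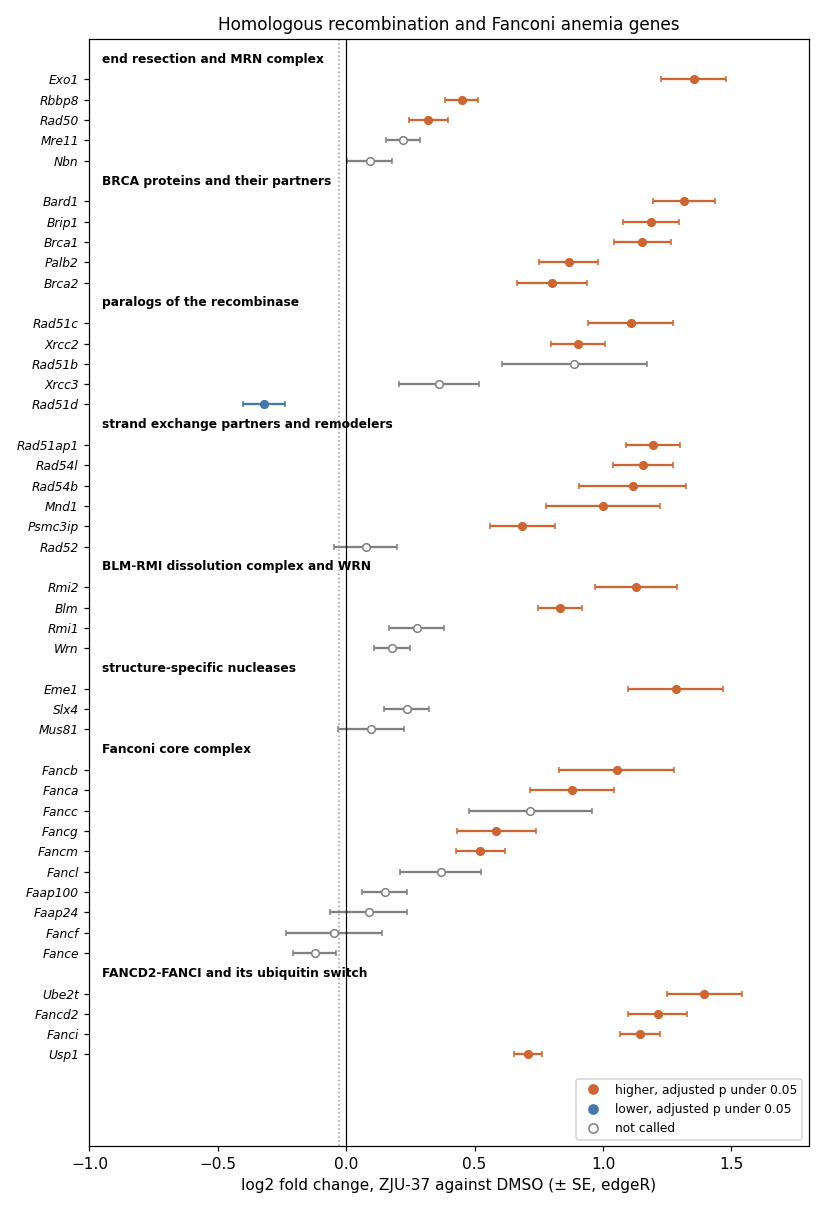
Log2 fold change of each of the 42 genes, ZJU-37 against DMSO, with its standard error from edgeR, ordered within each functional class. Orange points are genes called higher (26), the blue point is the gene called lower (Rad51d), open points are not called, the solid line marks 0 and the dotted line the median of all tested genes (-0.03). The BRCA proteins and the FANCD2-FANCI class lie wholly to the right, while the Fanconi core complex spreads from -0.12 to 1.05.

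The members were next examined for promoter letters typical of cell cycle genes. E2F factors drive genes of S phase entry through sites such as TTTCGCGC, TTTGGCGC and TTCCCGCC, which were searched on both strands. RefSeq promoters of the rat build GRCr8, 250 bases before to 50 bases after the annotated start, were matched for 36 members. No promoter was matched for Rmi2, Rad54b, Blm, Nbn, Wrn and Xrcc2. At least 1 E2F match was present in 7 of the 36 (19.4%), compared with 5.05% of the promoters of tested genes and 2.68% of all promoters. It was present in 4 of the 22 members called higher (18.2%) and 3 of the 14 others (21.4%). The cell cycle element TTTGAA was found in 19.4% of member promoters, 11.9% of those of tested genes and 18.3% of all promoters. The CCAAT box was found in 41.7%, 36.8% and 37.5%. The median GC content was 58.3% in member promoters and 60.7% in those of tested genes. These shares are descriptions of short windows and no binding was measured.

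The windows around the match in the 5 called members that hold one are shown because these include both a called rise and the only called fall. They are written 5′ to 3′ along the gene's own strand, with the match in capitals and up to 36 bases on either side, and none runs more than 30 bases past the start. Letters in capitals that read GGCGGGAA are TTCCCGCC on the other strand. The match begins -31 bases from the start in Usp1 (chr5:118702989-118703068, plus strand), -96 in Rad50 (chr10:38362153-38362232, minus strand) and -13 in Rad51d (chr10:68321873-68321951, minus strand). It begins 1 base after the start in Rad51ap1 (chr4:161458530-161458594, minus strand) and 9 bases after it in Psmc3ip (chr10:86527637-86527693, minus strand).
Usp1: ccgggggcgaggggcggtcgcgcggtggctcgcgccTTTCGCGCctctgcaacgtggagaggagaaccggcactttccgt
Rad50: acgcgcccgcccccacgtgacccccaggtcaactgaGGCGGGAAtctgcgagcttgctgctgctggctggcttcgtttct
Rad51d: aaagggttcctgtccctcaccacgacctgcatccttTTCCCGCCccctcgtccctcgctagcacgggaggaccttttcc
Rad51ap1: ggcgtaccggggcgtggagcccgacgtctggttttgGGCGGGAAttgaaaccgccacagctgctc
Psmc3ip: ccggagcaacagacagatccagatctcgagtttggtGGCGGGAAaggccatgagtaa
Rad51d, which fell, and Rad50, which rose by 0.32, carried the same TTCCCGCC letters as Rad51ap1, which rose by 1.20 on the log2 scale.

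In the class of end resection, 3 of 5 genes were higher and the median log2 fold change was 0.32. Exo1, the exonuclease that extends the single-stranded tail, was the one that changed most. Exo1 was at 7.01, 7.74 and 7.54 CPM with DMSO and 21.5, 18.7 and 16.8 CPM with ZJU-37 (replicates 1, 2 and 3 in that order). All 3 ZJU-37 libraries lay above the highest DMSO library, and the log2 fold change was 1.35 ± 0.13 (SE, adjusted p = 0.000866). Rbbp8, which encodes CtIP and starts resection, rose from 43.7 ± 0.864 to 59.6 ± 3.11 CPM (0.45 ± 0.064, adjusted p = 0.00474). The 3 subunits of the MRN complex, which binds and tethers the broken end, differed less between the groups. Rad50, its ATPase, changed by 0.32 ± 0.075 (adjusted p = 0.0330), and this call was kept only without ZJU-37 replicate 3 (0.0474) among the 6 fits that each left out 1 library. Without the others the adjusted p ranged from 0.0519 (ZJU-37 replicate 1) to 0.106 (DMSO replicate 3), with 0.0651 without ZJU-37 replicate 2 and 0.0768 and 0.0714 without DMSO replicates 1 and 2. The nuclease Mre11 had a log2 fold change of 0.22 ± 0.067 and was called only with the replicate block (adjusted p = 0.0745 without it and 0.0177 with it). The scaffold Nbn had 0.09 ± 0.088 (adjusted p = 0.566).

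All 5 BRCA proteins and partners were higher, with a median log2 fold change of 1.15. Brca1 and Bard1 encode the partners of a ubiquitin ligase that acts at breaks. Brca1 was at 22.6, 23.4 and 27.1 CPM with DMSO and 60.8, 48.5 and 53.5 CPM with ZJU-37 (replicates 1, 2 and 3 in that order). Bard1 was at 22.6, 23.4 and 19.5 CPM with DMSO and 62.1, 48.3 and 52.5 CPM with ZJU-37 (replicates 1, 2 and 3 in that order). The highest DMSO library of either gene was well below the lowest ZJU-37 library, and the log2 fold changes were 1.15 ± 0.11 (adjusted p = 0.00101) and 1.32 ± 0.12 (adjusted p = 0.000791). Brip1, a helicase that binds BRCA1, was at 6.94, 6.89 and 6.48 CPM with DMSO and 16.5, 14.8 and 14.9 CPM with ZJU-37 in replicates 1, 2 and 3. Its groups did not overlap (1.19 ± 0.11, adjusted p = 0.000795).

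Palb2 bridges BRCA1 to BRCA2, and BRCA2 places the recombinase on single-stranded DNA. Palb2 was at 7.30, 7.00 and 7.86 CPM with DMSO and 14.2, 13.5 and 12.7 CPM with ZJU-37 in replicates 1, 2 and 3. Brca2 was at 17.0, 17.7 and 15.7 CPM with DMSO and 35.04, 26.9 and 26.0 CPM with ZJU-37. Both were separated between the groups, and Brca2 was highest in ZJU-37 replicate 1. The log2 fold change was 0.87 ± 0.11 for Palb2 (adjusted p = 0.00328) and 0.80 ± 0.13 for Brca2 (adjusted p = 0.00941). Per kilobase of counted length, Brca2 and Brip1 were among the 3 lowest members in the DMSO libraries, at 1.62 and 1.55 CPM per kilobase.

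The paralogs of the recombinase form small complexes that help it assemble on DNA. Of 5 genes 2 were higher and 1 was lower. Rad51c, present in each of these complexes, was at 6.72, 6.04 and 5.26 CPM with DMSO and 15.2, 12.3 and 11.3 CPM with ZJU-37 in replicates 1, 2 and 3. Xrcc2 was at 12.4, 14.6 and 14.1 CPM with DMSO and 27.8, 23.9 and 25.3 CPM with ZJU-37. In both genes the groups were apart, with log2 fold changes of 1.11 ± 0.17 (adjusted p = 0.00577) and 0.90 ± 0.10 (adjusted p = 0.00201). Rad51d, which binds XRCC2 directly, was at 19.0, 18.2 and 18.4 CPM with DMSO and 15.2, 14.7 and 14.6 CPM with ZJU-37. It is given in full because it was the single member called lower, a choice made after its values were seen. Its 3 ZJU-37 libraries lay below its 3 DMSO libraries, but the change was small (-0.32 ± 0.082, adjusted p = 0.0446). The call was lost without any 1 of the 6 libraries, at adjusted p = 0.117, 0.117 and 0.118 without DMSO replicates 1, 2 and 3 and 0.0732, 0.141 and 0.186 without ZJU-37 replicates 1, 2 and 3. Rad51b was the lowest member by CPM, with means of 1.55 ± 0.371 and 2.87 ± 0.625 CPM (SD, n = 3), and its log2 fold change of 0.89 ± 0.28 was called only with the replicate block (adjusted p = 0.0851 without it and 0.0164 with it). Xrcc3 had 0.36 ± 0.16 (adjusted p = 0.185), and its gene span overlaps that of Klc1, so its counts are uncertain.

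**Figure D2:**
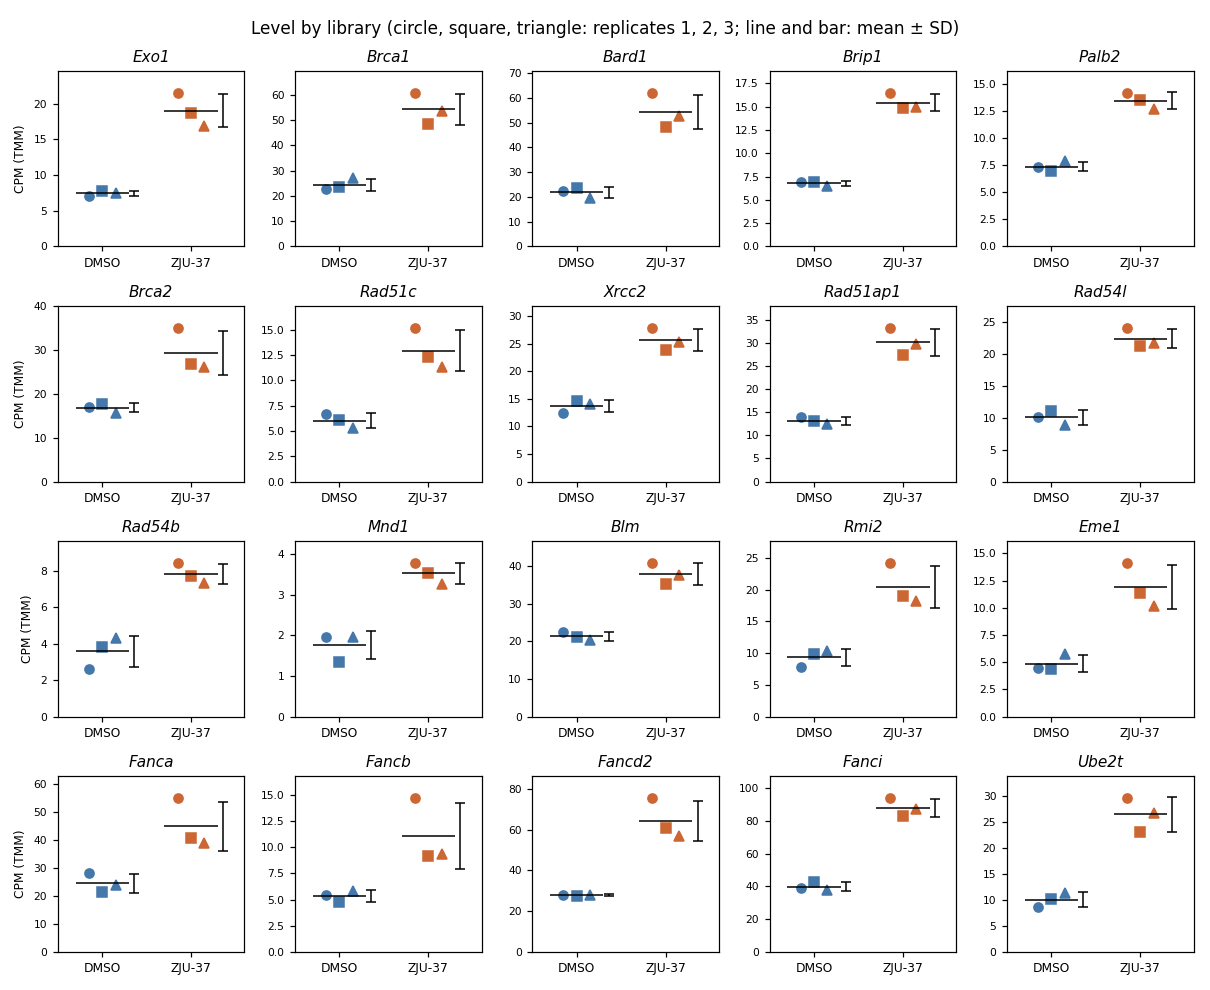
CPM of the 20 members called higher whose log2 fold change was 0.8 or more, with DMSO in blue and ZJU-37 in orange. Circles, squares and triangles are replicates 1, 2 and 3, lines are means and bars SD (n = 3), and each axis starts at 0. The lowest ZJU-37 library lies above the highest DMSO library in all 20 panels, and the circle of replicate 1 is the top ZJU-37 point in each.

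Among the partners of strand exchange 5 of 6 were higher, with a median log2 fold change of 1.06. Rad51ap1 encodes a protein that binds the recombinase and helps it capture the intact duplex. Rad51ap1 was at 14.03, 13.0 and 12.4 CPM with DMSO and 33.3, 27.3 and 29.7 CPM with ZJU-37 (replicates 1, 2 and 3 in that order). The groups were clearly separated (1.20 ± 0.11, adjusted p = 0.000705). Rad54l and Rad54b encode related motor proteins that move along DNA and open the duplex. Rad54l was at 10.2, 11.1 and 8.87 CPM with DMSO and 24.1, 21.2 and 21.7 CPM with ZJU-37 in replicates 1, 2 and 3. Rad54b was at 2.63, 3.84 and 4.30 CPM with DMSO and 8.43, 7.71 and 7.36 CPM with ZJU-37 and was the lowest member per kilobase in the DMSO libraries, at 1.09 CPM per kilobase. Their log2 fold changes were near each other, at 1.156 ± 0.12 (adjusted p = 0.00121) and 1.12 ± 0.21 (adjusted p = 0.0139). The gene span of Rad54l overlaps that of Lrrc41 and the span of Rad54b that of Fsbp, so reads could be shared.

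Mnd1 and Psmc3ip encode the subunits of a heterodimer that stimulates strand exchange and is best known from meiosis. Both transcripts were detected in these cultured glial progenitors. Mnd1 was at 1.97, 1.36 and 1.96 CPM with DMSO and 3.78, 3.54 and 3.27 CPM with ZJU-37 in replicates 1, 2 and 3. This was the lowest expressed of the members called higher by CPM, and although its groups did not overlap (1.0 ± 0.22, adjusted p = 0.0265) the call was lost without any 1 of the 6 libraries. The adjusted p was then 0.0544, 0.0775 and 0.0615 without DMSO replicates 1, 2 and 3 and 0.0644, 0.0657 and 0.0649 without ZJU-37 replicates 1, 2 and 3. Psmc3ip rose from 11.2 ± 1.54 to 18.0 ± 0.694 CPM (0.69 ± 0.13, adjusted p = 0.0131), with a gene span that overlaps that of Mlx. Rad52, which anneals single strands, was at 10.7 ± 1.21 and 11.2 ± 0.431 CPM and was not called (0.08 ± 0.12, adjusted p = 0.741).

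In the dissolution complex and its relative WRN, 2 of 4 genes were higher. BLM is a helicase that, with a topoisomerase and the RMI proteins, separates joined DNA molecules without exchange. Blm was at 22.5, 21.1 and 20.2 CPM with DMSO and 40.8, 35.2 and 37.6 CPM with ZJU-37 in replicates 1, 2 and 3. Rmi2 was at 7.89, 9.83 and 10.3 CPM with DMSO and 24.2, 19.0 and 18.2 CPM with ZJU-37. Both were separated between the groups, with log2 fold changes of 0.83 ± 0.086 (adjusted p = 0.00131) and 1.13 ± 0.16 (adjusted p = 0.00456). Rmi1, which holds RMI2 in the complex, was at 37.7 ± 4.80 and 45.6 ± 3.06 CPM and its groups overlapped. Its log2 fold change was 0.27 ± 0.11 and was called only with the replicate block (adjusted p = 0.146 without it and 0.0131 with it). Wrn, a related helicase, had 0.18 ± 0.071 (adjusted p = 0.151). Per kilobase, Rmi2 was the highest of the 42 members in both groups, at 20.8 and 45.5 CPM per kilobase.

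Of the structure-specific nucleases only Eme1 was called, with 1 of 3 genes higher. EME1 is the partner that MUS81 needs to cut branched DNA. Eme1 was at 4.46, 4.41 and 5.73 CPM with DMSO and 14.1, 11.4 and 10.2 CPM with ZJU-37 in replicates 1, 2 and 3. Its lowest ZJU-37 library was above its highest DMSO library (1.28 ± 0.18, adjusted p = 0.00482). Mus81 itself, given in full beside its partner although it was not called, was at 21.4, 17.2 and 19.4 CPM with DMSO and 23.4, 18.4 and 20.1 CPM with ZJU-37, the groups overlapped, and no change was called (0.10 ± 0.13, adjusted p = 0.682). Slx4, the scaffold that gathers several nucleases, had a log2 fold change of 0.23 ± 0.086 and was called only with the replicate block (adjusted p = 0.126 without it and 0.0229 with it).

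The Fanconi core complex held both called and uncalled genes. Of its 10 genes 4 were higher, the median log2 fold change was 0.45, and 4 had overlapping groups. Fanca was at 28.1, 21.5 and 23.7 CPM with DMSO and 54.9, 40.8 and 38.9 CPM with ZJU-37 (replicates 1, 2 and 3 in that order). Fancb was at 5.41, 4.75 and 5.84 CPM with DMSO and 14.7, 9.17 and 9.38 CPM with ZJU-37 in replicates 1, 2 and 3. In both genes ZJU-37 replicate 1 stood above the other ZJU-37 replicates and the groups were still apart. FANCA stabilises one arm of the complex, and its gene had a log2 fold change of 0.88 ± 0.16 (adjusted p = 0.0141), a call lost without DMSO replicate 2 (0.0570) or DMSO replicate 3 (0.0586). Its gene span overlaps that of Zfp276. FANCB belongs to the catalytic arm, and its gene had 1.05 ± 0.22 (adjusted p = 0.0221), a call lost without DMSO replicate 1 (0.0683), 2 (0.0861) or 3 (0.0595).

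The other members of the core showed smaller differences. Fancm, the translocase that anchors the complex at a fork, rose from 28.5 ± 0.843 to 41.0 ± 4.82 CPM (0.52 ± 0.097, adjusted p = 0.0136), a call lost without DMSO replicate 3 (0.0545). Fancg, the partner of FANCA, rose from 7.36 ± 1.15 to 11.02 ± 0.723 CPM (0.58 ± 0.15, adjusted p = 0.0475). That call was lost without any 1 of the 6 libraries, at 0.0683, 0.104 and 0.110 without DMSO replicates 1, 2 and 3 and 0.0903, 0.0665 and 0.130 without ZJU-37 replicates 1, 2 and 3. The arm formed by FANCC, FANCE and FANCF links the core to its substrate, and none of its genes was called by edgeR without the block. Fancc had 0.72 ± 0.24 and was called by edgeR only with the replicate block (adjusted p = 0.0993 without it and 0.00441 with it). DESeq2, fitted without the block, also called it. Fance had -0.12 ± 0.083 (adjusted p = 0.398) and Fancf -0.05 ± 0.19 (adjusted p = 0.899), and both had overlapping groups. Fancl, the ubiquitin ligase itself, had 0.37 ± 0.16 (adjusted p = 0.185), with a gene span that overlaps that of Vrk2. The accessory genes Faap100 and Faap24 had 0.15 ± 0.088 (adjusted p = 0.327) and 0.09 ± 0.15 (adjusted p = 0.756), and the span of Faap24 overlaps that of Rhpn2.

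All 4 genes of the ubiquitin switch downstream of the core were higher, with a median log2 fold change of 1.18. FANCD2 and FANCI form the clamp that closes on DNA once ubiquitin is attached. Fancd2 was at 28.1, 27.2 and 28.0 CPM with DMSO and 75.5, 61.0 and 56.8 CPM with ZJU-37 (replicates 1, 2 and 3 in that order). Fanci was at 38.9, 42.9 and 37.9 CPM with DMSO and 94.1, 83.0 and 87.3 CPM with ZJU-37 (replicates 1, 2 and 3 in that order). The DMSO libraries of both lay close together and far below the ZJU-37 libraries, with log2 fold changes of 1.21 ± 0.11 (adjusted p = 0.000866) and 1.14 ± 0.078 (adjusted p = 0.000380). Ube2t, the conjugating enzyme that supplies the ubiquitin, was at 8.55, 10.2 and 11.4 CPM with DMSO and 29.6, 23.0 and 26.8 CPM with ZJU-37 in replicates 1, 2 and 3. It had the largest log2 fold change of the 42 members (1.39 ± 0.15, adjusted p = 0.00135). Usp1, the protease that removes the ubiquitin again, is given in full beside it and was at 70.3, 66.8 and 67.2 CPM with DMSO and 114, 108 and 112 CPM with ZJU-37, with no overlap between the groups and a smaller log2 fold change of 0.71 ± 0.055 (adjusted p = 0.000507). Usp1 had the most CPM of all members in both groups.

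The ratio of 2 members within each library was compared for 12 pairs chosen for their known relation as partners, opposed enzymes or paralogs. A ratio rests on the same counts as the fold changes of its genes, so where only 1 gene of a pair was called its difference is not a separate result. With 3 libraries against 3 the two-sided exact permutation test cannot go below p = 0.1, which adjusted over the 12 pairs is 0.171, so none could pass 0.05. The largest difference was in the MUS81-EME1 nuclease. The log2 ratio of Mus81 to Eme1 was 2.14, 1.85 and 1.68 in DMSO replicates 1, 2 and 3 and 0.71, 0.67 and 0.95 in ZJU-37 replicates 1, 2 and 3, a difference of -1.11. Per kilobase this was 5.48 ± 0.97 counts of Mus81 for each count of Eme1 with DMSO and 2.38 ± 0.27 with ZJU-37 (SD, n = 3). Rmi1 against Rmi2 differed by -0.81 on the log2 scale, from 0.853 ± 0.124 to 0.473 ± 0.0699 per kilobase.

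In the ubiquitin switch the RNA ratio of Ube2t to Usp1 per kilobase was below 1 with DMSO and above 1 with ZJU-37. This crossing rests on the division by gene length. In mean CPM Ube2t was below Usp1 in both groups, at 10.03 against 68.1 with DMSO and 26.4 against 111 with ZJU-37. Ube2t against Usp1 was at 0.849 ± 0.139 per kilobase with DMSO and 1.37 ± 0.14 with ZJU-37 (SD, n = 3), a log2 difference of 0.66. The ratio of the helicases Blm and Wrn was 0.959 ± 0.0732 with DMSO and 1.502 ± 0.094 with ZJU-37 per kilobase, a log2 difference of 0.64. Fancb against Faap100 differed by 0.81, Fancm against Faap24 by 0.42 and Mnd1 against Psmc3ip by 0.17, each with an exact permutation p of 0.1.

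The remaining ratios overlapped between the groups. The log2 difference was -0.15 for Brca1 against Bard1 (exact permutation p = 0.6), -0.05 for Brca2 against Palb2 (0.9), 0.06 for Fancd2 against Fanci (0.6), 0.07 for Rad54l against Rad54b (0.8) and 0.10 for Rad50 against Mre11 (0.2). For all of these except Rad50 against Mre11, the sign changed when 1 library was left out.

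**Figure D3:**
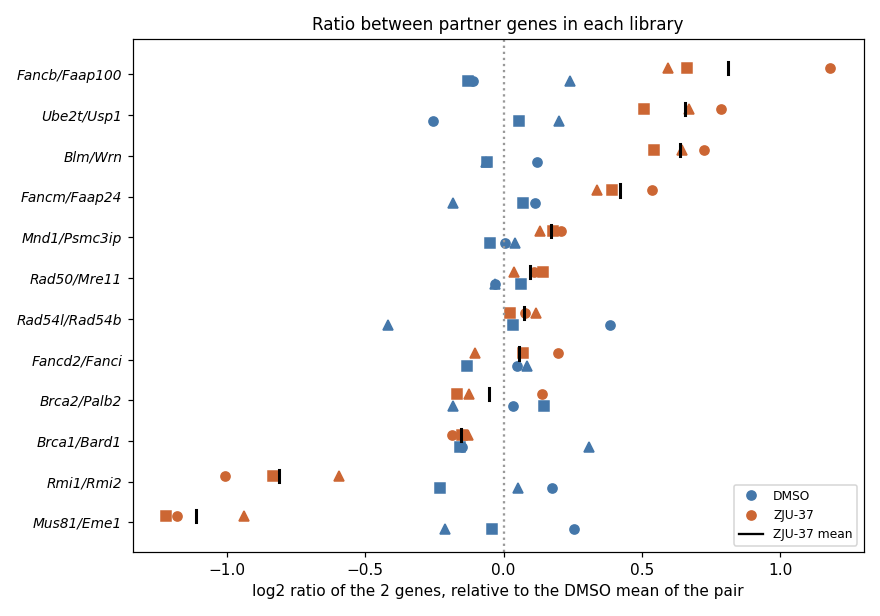
Log2 ratio of 2 partner genes in each library, with the mean of the DMSO libraries of that pair set to 0. Blue is DMSO and orange ZJU-37, circles, squares and triangles are replicates 1, 2 and 3, and the short black line is the ZJU-37 mean. Mus81/Eme1 (-1.11) and Rmi1/Rmi2 (-0.81) lie to the left and Fancb/Faap100 (0.81), Ube2t/Usp1 (0.66) and Blm/Wrn (0.64) to the right, while Brca1/Bard1 and Fancd2/Fanci stay near 0.

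Other genes of the same pathways were examined from a second list of 46, of which 39 were found and 38 tested. Here 15 were higher and 1 lower, against 9.43% and 5.58% of all tested genes, with a median log2 fold change of 0.24. With the replicate block 19 were higher and 2 lower, against 16.2% and 15.9%. The log2 fold change was positive for 27 and negative for 11. Replication protein A, which coats the single strands before the recombinase, rose in all 3 subunits, named after their values were seen. Rpa1 had 0.73 ± 0.075 (adjusted p = 0.00134), Rpa2 1.09 ± 0.080 (adjusted p = 0.000430) and Rpa3 0.58 ± 0.075 (adjusted p = 0.00306). The smallest log2 fold change of this list was that of Babam2, a member of a BRCA1-associated complex (-0.27 ± 0.065, adjusted p = 0.0351). That call, the only lower one of the list without the block, was lost without any 1 of the 6 libraries (0.0799 without ZJU-37 replicate 1 to 0.0998 without ZJU-37 replicate 2). The largest was that of Hells, a chromatin remodeler, which was not called (2.52 ± 0.89, adjusted p = 0.117). It was at 0.584, 1.53 and 0.478 CPM with DMSO and 8.92, 0.824 and 5.37 CPM with ZJU-37 in replicates 1, 2 and 3, so ZJU-37 replicate 2 lay within the DMSO range, and without that library the adjusted p was 0.01998. Its gene span overlaps those of LOC100911660 and Tbc1d12, so its few counts are uncertain.

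Non-homologous end joining rejoins broken ends directly and works in all phases of the cell cycle. Of 16 tested genes of that pathway 1 was called, against 9.43% of all tested genes called higher and 5.58% called lower, and the median log2 fold change was 0.06. The gene called was Rif1, which was higher (0.36 ± 0.093, adjusted p = 0.0431) and which also acts in replication timing. That call was lost without any 1 of the 6 libraries, at adjusted p = 0.0562 (without ZJU-37 replicate 1) to 0.137 (without DMSO replicate 2). The lowest value was that of Xrcc4 (-0.49 ± 0.15, adjusted p = 0.0812, and 0.0241 without ZJU-37 replicate 1). With the replicate block 2 were higher and 1, Xrcc4, was lower (adjusted p = 0.0142), against 16.2% and 15.9% of all tested genes. These shares are near those of all genes. The 7 MCM helicase genes, which unwind DNA at the fork, were all higher, from 0.98 for Mcm7 to 1.31 for Mcm5, with a median of 1.14. The medians of the BRCA class (1.15) and the FANCD2-FANCI class (1.18) were near those of the MCM genes and the proliferation markers, and the median of the Fanconi core (0.45) was nearer to that of the second recombination list. The differences between these lists were not tested.

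**Figure D4:**
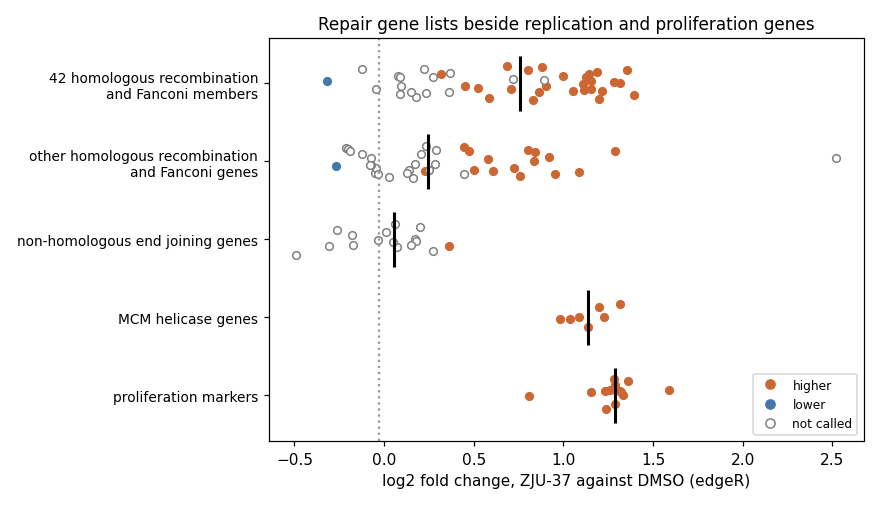
Log2 fold change of each tested gene, ZJU-37 against DMSO by edgeR, for the 42 members and 4 other lists. Orange points were called higher, blue lower, open points were not called, black bars are medians and the dotted line is the median of all tested genes. The median of the members (0.76) lies between that of the end joining genes (0.06) and those of the MCM and proliferation genes (1.14 and 1.29).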

How the data were processed

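RNA of rat OPCs in 6 libraries (3 DMSO, 3 ZJU-37) was purified with poly-T beads and sequenced by the study's authors. The submitters' processing notes name HISAT2 2.0.5, StringTie 1.3.3b and featureCounts 1.5.0. The deposited table holds whole-number counts per gene, as the authors counted them, and FPKM computed by the authors. Its genome build and the strand setting of the counting are not given in the sources used here, so reads of overlapping genes could not be separated. Its columns of the authors' own comparison (fold changes and p-values) were not used.

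Counts were filtered with filterByExpr and scaled by TMM (factors 0.981 to 1.04). The groups were compared with edgeR 4.0.16 (robust quasi-likelihood test, R 4.3.3) on the whole table, and p-values were adjusted by Benjamini-Hochberg with a threshold of 0.05. CPM are counts scaled to a common library total after TMM, and per kilobase they were divided by the counted gene length. DESeq2 1.42.0 and limma 3.58.1 (voom, and log2(FPKM + 1) and log2(FPKM + 0.1) on the deposited FPKM) served as alternatives. Ratios between members used log2(CPM + 0.5) and a two-sided exact permutation test. The scripts were tested on simulated data. The CPM given for 3 counts reflect counting error only.

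The calls and ratio tests were made without the replicate number, and a fit with it as a block was the alternative. The study's methods name no block for its own comparison. The numbers may pair the libraries. Libraries that carry the same number deviated together from the means of their groups (r = 0.46, 0.35 and 0.37 over genes). Between different numbers r was -0.31 to -0.00. Deviations from a group mean cancel within the group, so a positive r for same numbers partly forces a negative r for different numbers. Whether the libraries were paired was not tested. The members and lists were chosen with earlier results of these data known. Values in each library are given for members with adjusted p under 0.05 and an absolute log2 fold change of at least 0.8, and the remaining members are summarised, except that Rad51d, Mus81 and Usp1 are also given by library, a choice made after their values were seen. From other lists the largest and smallest changes are named. Of the second recombination list 7 genes were not matched to the table and are not analysed here.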

Additional observations from a re-analysis of the deposited data

How the results depend on the processing

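The number of members called higher stayed between 25 and 27 with DESeq2, limma-voom, both limma fits on FPKM, 3 other scalings, 2 other filters on low counts and thinning to the smallest library. It was 20 to 24 when 1 library was left out and 31 with the replicate block, under which all 27 calls were kept and 5 were added. The single call of a lower member depended on the setting, as the count was 0 with DESeq2, log2(FPKM + 1), log2(FPKM + 0.1), library size scaling, upper quartile scaling, no filter and thinning, and 0 in each fit that left out 1 library. The median log2 fold change of the members was 0.64 with log2(FPKM + 1), which compresses low values, and 0.69 to 0.89 when 1 library was left out. With 1 library left out, the log2 fold change of Fancf, not called, ranged from -0.188 to 0.0701, and the ratio differences ranged from -0.23 to 0.00016 for Brca1/Bard1, -0.148 to 0.0216 for Brca2/Palb2, -0.0162 to 0.135 for Fancd2/Fanci and -0.14 to 0.27 for Rad54l/Rad54b. The cause of these changes was not tested. The calls of Rad50 (adjusted p = 0.0655 with log2(FPKM + 1)) and Fancg (0.0508 with DESeq2 size factors, 0.0528 with no filter and 0.0728 after thinning) were also lost, while Fancc was called by DESeq2 (0.0457). Over all tested genes, 1383 were higher and 818 lower, against 2371 and 2334 with the replicate block and 858 to 1259 and 374 to 668 when 1 library was left out. Thinning to the smallest library, the alternative that bears on depth, ended the calls of Fancg and Rad51d among the 27.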

Other observations

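Across the 42 members, the level per kilobase with DMSO and the log2 fold change had a Spearman's rho of -0.32. This describes genes that share the DMSO libraries and are not independent replicates, so no test is given. Within the same-numbered pairs, the difference was largest in pair 1 for 19 of the 26 members called higher, in pair 2 for 2 and in pair 3 for 5.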
